A study of Mus musculus with 6 samples.

Results

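Transcripts of 10 mouse genes proposed to serve heat production without Ucp1 were followed in cultured adipocytes from 3 fat depots. Of these genes, 7 belong to creatine synthesis, transport and cycling (Gatm, Gamt, Slc6a8, Ckb, Ckmt1, Ckmt2 and Alpl). The other 3 belong to calcium cycling at the endoplasmic reticulum (Atp2a1, Atp2a2 and Ryr2). They were chosen by symbol, as genes proposed for heat cycles that bypass Ucp1, from the 20295 genes of the deposited count table. Every one of the 10 had a count in at least 1 library, and 6 of them passed the filter on low counts and were tested.

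Male NMRI mice aged 4 to 5 weeks supplied brown fat (BAT), epididymal white fat (eWAT) and inguinal white fat (iWAT). The BAT cells came from interscapular, cervical and axillary fat combined. The stromal-vascular fraction, the cells left after collagenase digestion once mature adipocytes are removed, was grown in medium with 10% newborn calf serum, 30 nM insulin, sodium ascorbate and 1 µM rosiglitazone, an activator of the adipogenic regulator Pparg. All 3 groups received this medium and were harvested at 8 days (the count table tags its columns with day 7). Only cultures with more than 50% differentiated cells entered the study, so each library may hold other cells of the fraction as well. The labels name neither cold exposure nor an adrenergic agonist, so the values describe cells without a stated heat stimulus. There were 2 libraries per depot from ribosomal RNA-depleted total RNA. The labels do not say that they came from separate animals or cultures, so p-values measure only the spread between these libraries, which may be technical.

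In thermogenic fat, Ucp1 makes heat by letting protons leak across the inner mitochondrial membrane. Creatine cycling is a separate route, in which creatine is phosphorylated at the mitochondrion and phosphocreatine is then hydrolysed, so that ATP is spent with no other work done. Calcium cycling likewise spends ATP, because the SERCA pumps carry calcium back into the endoplasmic reticulum after it has left through ryanodine or inositol trisphosphate (IP3) receptors.

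Total counts ran from 2889038 to 4807449 per library, with the lowest total in BAT replicate 2. A library with 0 reads of a gene could still hold up to 3, which corresponded to 0.634 to 1.15 CPM (read counts scaled to a common library total). Levels are CPM with edgeR's TMM scaling, or CPM per kilobase of counted gene length (RPKM) wherever genes are set beside each other. Ucp1 was at 4924 and 9294 CPM in BAT, 59.6 and 62.9 CPM in eWAT, and 1114 and 995 CPM in iWAT. Adipoq, the adipocyte hormone adiponectin, was at 1401 to 2396 CPM in all 6 libraries. None of the 10 adipocyte markers passed the edgeR test between depots. Of all 11732 tested genes, edgeR called 318 higher in BAT than in eWAT and 17 higher in BAT than in iWAT. Of 14 brown adipocyte markers, 11 were higher in BAT than in eWAT, and 2 (Ucp1 and Ebf2) were higher in BAT than in iWAT. Without 1 library at a time these counts ran from 1 to 12 and were 0, as the single libraries of a depot carry much of each test.

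Ucp1 was highest in BAT, and the creatine genes were not. Gatm, Gamt, Ckb and Slc6a8 (4 of the 10 genes) were each lower in both BAT libraries than in both eWAT libraries. Of all 17699 genes with a count, 23.5% had this same order. The few reads of Atp2a1 (16 in BAT, 5 in eWAT and 4 in iWAT) and Ryr2 (15, 5 and 10) were most numerous in BAT. Neither gene had enough reads for the edgeR test, and the authors' deposited test results called neither. For Ryr2 the BAT to iWAT ratio was 1.66, with an exact binomial interval of 0.698 to 4.13 for counting error only. The share of all genes with both BAT libraries above the others was not counted. Nor was the share with 3 depots that do not overlap, so these orders have no background here or below. Atp2a2, the most abundant SERCA pump transcript, ranged only from 156 to 227 CPM over the 6 libraries. With edgeR's quasi-likelihood test, fitted on the depots with no term for the replicate number and adjusted by Benjamini-Hochberg over all 11732 tested genes, none of the 6 tested genes passed 0.05 in any of the 3 depot comparisons. In bulk RNA, fewer cells of a type and less RNA per cell cannot be told apart.

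**Figure D1:**
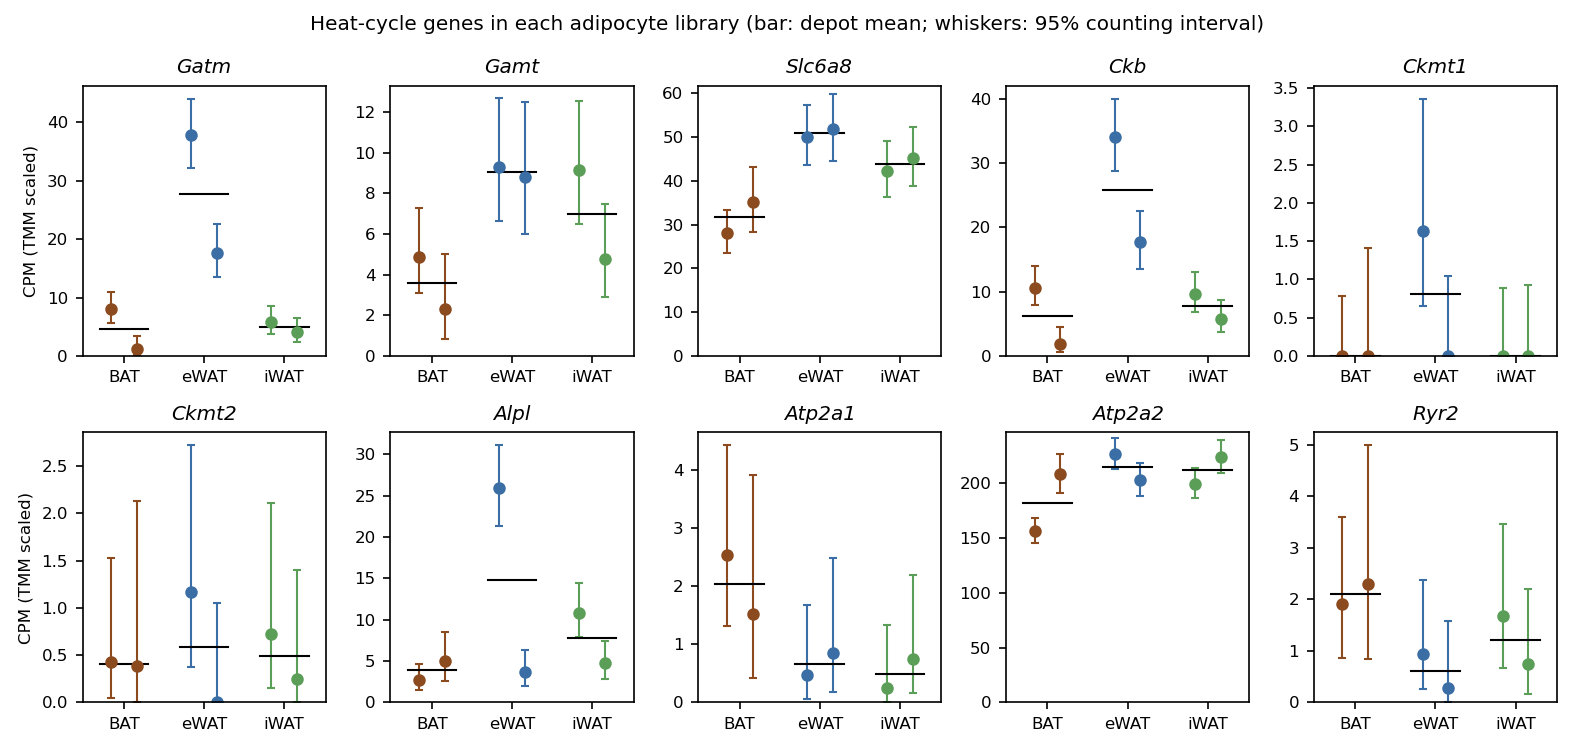
Level of each of the 10 genes (y axis, TMM-scaled CPM from 0, each panel on its own scale) in the 2 libraries of BAT, eWAT and iWAT (x axis, replicate 1 to the left of replicate 2). Points are libraries, whiskers are exact 95% Poisson intervals that cover counting error only, and bars are depot means. For Gatm, Gamt, Ckb and Slc6a8 both BAT points lie below both eWAT points, as for 23.5% of all genes with a count.

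Gatm encodes the mitochondrial amidinotransferase that makes guanidinoacetate from arginine and glycine, the committed step of creatine synthesis. In mm9 it lies on the minus strand of chromosome 2, from 122420209 to 122437013 (NM_025961). It was at 8.03 and 1.15 CPM in BAT, 37.7 and 17.6 CPM in eWAT, and 5.77 and 4.02 CPM in iWAT. The eWAT libraries were the highest pair, the BAT and iWAT ranges overlapped, and BAT replicate 2 held only 3 reads. Depot means were 4.59 ± 4.87 CPM in BAT, 27.7 ± 14.2 CPM in eWAT and 4.90 ± 1.24 CPM in iWAT (SD, n = 2 each). On the log2 scale BAT was below eWAT by -2.47 ± 0.73 (SE, edgeR adjusted p = 0.0978, 95% interval -4.24 to -0.70). The iWAT libraries were below eWAT by a like amount, -2.49 ± 0.73 (edgeR adjusted p = 0.292). BAT and iWAT differed by 0.03 ± 0.77 (edgeR adjusted p = 0.992). DESeq2 called Gatm lower in BAT than in eWAT (log2 difference -2.53, adjusted p = 0.0187). The size of the edgeR difference depended on single libraries: it was -4.56 (adjusted p = 0.0422) without BAT replicate 1, and the value nearest to 0 was -1.79, among fits that each left out 1 library.

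Gamt encodes the methyltransferase that turns guanidinoacetate into creatine (NM_010255, minus strand of chromosome 10, 79720896 to 79723713). Its level was 4.86 and 2.29 CPM in BAT, 9.32 and 8.82 CPM in eWAT, and 9.14 and 4.78 CPM in iWAT. The iWAT pair spanned the distance between the other depots, from just under BAT replicate 1 to between the eWAT libraries. The log2 difference between BAT and eWAT was -1.27 ± 0.50 (edgeR adjusted p = 0.175), and that between BAT and iWAT was -0.89 ± 0.50 (edgeR adjusted p = 0.427). Between iWAT and eWAT it was -0.38 (edgeR adjusted p = 0.978). Gatm and Gamt, the synthesis enzymes, thus had their highest mean in eWAT, but for Gamt the counts were few, from 6 to 40 reads a library.

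Slc6a8 encodes the plasma membrane creatine transporter (NM_001142809, plus strand of chromosome X, 70918472 to 70927839). It was the steadiest of the creatine genes between replicates. It stood at 28.1 and 35.2 CPM in BAT, 50.1 and 51.8 CPM in eWAT, and 42.3 and 45.3 CPM in iWAT. The 3 depots did not overlap, in the order eWAT, iWAT, BAT. BAT was below eWAT by a log2 difference of -0.69 ± 0.19 (edgeR adjusted p = 0.0802, unadjusted p = 0.00923, 95% interval -1.15 to -0.24). The difference passed the threshold when libraries were scaled by their totals alone (log2 difference -0.84, edgeR adjusted p = 0.0457). BAT was below iWAT by -0.48 ± 0.19 (edgeR adjusted p = 0.282). The iWAT and eWAT libraries differed by -0.22 (edgeR adjusted p = 0.922). Per kilobase, Slc6a8 was the most abundant creatine gene in BAT (7.98 ± 1.26 RPKM) and in iWAT (11.0 ± 0.520 RPKM) by the mean (SD, n = 2 each). The next gene in iWAT was Gamt at 7.37 ± 3.27 RPKM, which reached 9.68 RPKM in replicate 1 against 10.7 RPKM for Slc6a8, followed by Ckb at 5.21 ± 1.84 RPKM (SD, n = 2 each). The next gene in BAT was Ckb at 4.22 ± 4.14 RPKM (SD, n = 2). In BAT replicate 1 Slc6a8 and Ckb were level, at 7.09 RPKM for Slc6a8 and 7.15 RPKM for Ckb. Below them in BAT came Gamt at 3.79 ± 1.92 RPKM, Gatm at 1.95 ± 2.07 RPKM and Alpl at 1.53 ± 0.623 RPKM (SD, n = 2 each), neighbours that did not differ beyond their spread. In eWAT the order was turned in the means, at 12.8 ± 0.299 RPKM for Slc6a8 and 17.5 ± 7.84 RPKM for Ckb (SD, n = 2 each), which did not differ beyond their spread.

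Ckb encodes the brain-type creatine kinase, which moves phosphate between ATP and creatine (NM_021273, minus strand of chromosome 12, 112907566 to 112910549). Its level was 10.6 and 1.91 CPM in BAT, 34.0 and 17.6 CPM in eWAT, and 9.62 and 5.78 CPM in iWAT. As for Gatm, the eWAT pair was highest and the iWAT pair lay between the BAT libraries. The log2 difference was -1.95 ± 0.69 between BAT and eWAT (edgeR adjusted p = 0.146, 95% interval -3.63 to -0.27). It was -1.74 ± 0.68 between iWAT and eWAT (edgeR adjusted p = 0.493) and -0.21 ± 0.72 between BAT and iWAT (edgeR adjusted p = 0.921). Leaving out 1 library at a time moved the BAT and eWAT value of Ckb between -3.74 and -1.30, with no call. Gatm, Gamt and Ckb were each higher in replicate 1 than in replicate 2 in all 3 depots, as were 2747 of the tested genes (23.4%).

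The mitochondrial creatine kinases were near or below the detection limit. Ckmt1, the widely expressed form, had 7 reads in eWAT replicate 1 and 0 in each of the other 5 libraries. If 3 counts are assumed for each depot without reads, eWAT was 2.20-fold above BAT and 2.43-fold above iWAT, with all reads from 1 library. These folds make no allowance for error in the 7 reads. The exact 95% binomial interval of the ratio was 0 to 0.737 for BAT to eWAT and 0 to 0.666 for iWAT to eWAT. Ckmt2, the form of muscle sarcomeres, had 2 and 1 reads in BAT, 5 and 0 reads in eWAT, and 3 and 1 reads in iWAT. The BAT to eWAT ratio of Ckmt2 was 0.638, with an exact 95% binomial interval of 0.0990 to 3.28 that covers counting error only. Ckm, the kinase of muscle fibres, had 1 read in all, in BAT replicate 1. Ckb therefore made up 83.4% to 100% of the summed creatine kinase RPKM in each library. In mm9, Ckmt1 spans 121184377 to 121189473 on the plus strand of chromosome 2 (NM_009897), and Ckmt2 spans 91992992 to 92016490 on the minus strand of chromosome 13 (NM_198415). The end of Ckmt1 overlaps Strc on the other strand by 11 bases; Strc had at most 1 read in a library. Whether the counting used strand is not given in the sources used here.

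Alpl encodes tissue-nonspecific alkaline phosphatase, which can hydrolyse phosphocreatine and is also the phosphatase of mineralizing bone (NM_007431, minus strand of chromosome 4, 137297646 to 137352299). It was at 2.75 and 4.97 CPM in BAT, 25.9 and 3.70 CPM in eWAT, and 10.8 and 4.78 CPM in iWAT. A single library, eWAT replicate 1, stood above all others, while eWAT replicate 2 lay between the BAT libraries. The log2 difference between BAT and eWAT was -2.00 ± 0.94 (edgeR adjusted p = 0.243). Without eWAT replicate 1 it was 0.01, so that library decided the value. Between BAT and iWAT the difference was -1.07 ± 0.96 (edgeR adjusted p = 0.630). Between iWAT and eWAT it was -0.93 (edgeR adjusted p = 0.939), and 1.07 without eWAT replicate 1. The 10 osteoblast markers summed to 291 and 125 CPM in BAT, 735 and 916 CPM in eWAT, and 242 and 226 CPM in iWAT. Bglap and Bglap2, which encode osteocalcin, had no read in any library, and Spp1 (osteopontin) made up 34.0 CPM of the sum in BAT replicate 2 and 151 to 862 CPM in the other 5 libraries. The part of such cells in the Alpl values was not tested.

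**Figure D2:**
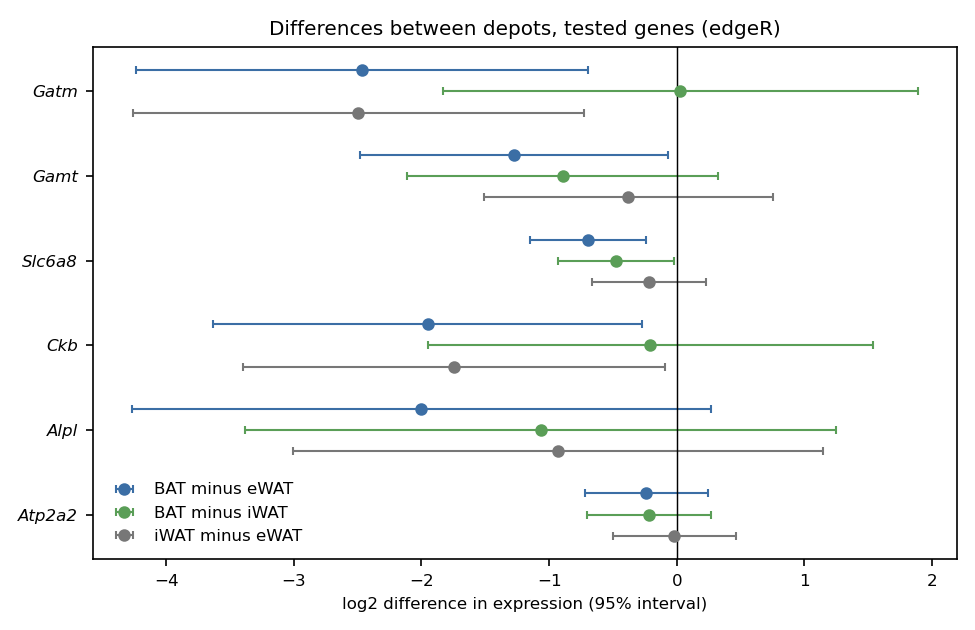
Log2 difference between depots (x axis) for the 6 tested genes (y axis), with points for the edgeR estimates and whiskers for their 95% intervals, in blue for BAT minus eWAT, green for BAT minus iWAT and grey for iWAT minus eWAT. All 6 blue points lie below 0, from -2.47 for Gatm to -0.24 for Atp2a2, and the intervals of Slc6a8 and Atp2a2 are the narrowest. The blue intervals of Alpl and Atp2a2 cross 0, and the BAT minus eWAT median over all tested genes was -0.03. Atp2a1 and Ryr2, with their most reads in BAT, were not tested and are not shown.

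Between BAT and eWAT, 758 of the tested genes (6.46%) passed the adjusted edgeR test, 318 higher and 440 lower in BAT, and none of the 6 heat-cycle genes was among them. With libraries scaled by their totals alone the split was 251 higher and 575 lower. The total of 758 was 820 without BAT replicate 1, 2 without BAT replicate 2, 79 and 72 without eWAT replicates 1 and 2, and 195 and 134 without iWAT replicates 1 and 2. At an unadjusted edgeR p under 0.05, Gatm, Gamt, Ckb and Slc6a8 (4 of 6) were lower in BAT, against 13.4% of all tested genes. DESeq2 called 1 of the 6 lower (Gatm), against 6.57% of all tested genes, and limma voom called none, against 4.74% in either direction. Of the 10 genes, 4 had both BAT libraries below both eWAT libraries, as did 23.5% of the 17699 genes with a count.

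Between BAT and iWAT, no heat-cycle gene passed the adjusted edgeR test, against 1.04% of all tested genes (122 genes, and 0 to 94 when 1 library was left out). Only Slc6a8 had an unadjusted edgeR p under 0.05 as lower in BAT, against 8.75% of all tested genes. DESeq2 and limma voom called none of the 6, against 4.35% and 0.588%. Between iWAT and eWAT, edgeR called no gene of the whole table (0%), and the heat-cycle genes were no exception. Gatm and Ckb were lower in iWAT at an unadjusted edgeR p under 0.05, against 5.44% of all tested genes. DESeq2 and limma voom again called none of the 6, against 2.57% and 0.00852%. The comparisons share libraries, so the low iWAT and BAT values of Gatm and Ckb rest on the same eWAT pair.

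The authors' deposited table, which gives adjusted p-values from a test that carries a likelihood ratio, called more of these genes. The authors' deposited table had 5 of the 10 lower in BAT than in eWAT, against 10.4% of all genes with a count. By the authors' deposited table these were Gatm (log2 fold change -2.62, adjusted p = 1.31e-10), Ckb (-2.11, 3.04e-07), Gamt (-1.27, 0.0112), Ckmt1 (-5.00, 0.0159) and Slc6a8 (-0.70, 0.0311). The authors' deposited table also had 3 genes lower in iWAT than in eWAT, against 6.05% of all genes with a count: Gatm (-2.48, 1.94e-17), Ckb (-1.74, 2.09e-10) and Ckmt1 (-4.79, 0.0316). Between BAT and iWAT the authors' deposited table called none of the 10, against 9.45% of all genes with a count in either direction. For Ckmt1 both deposited calls rest on the 7 reads of eWAT replicate 1. The log2 fold changes of Gatm, Gamt, Ckb and Slc6a8 in the authors' deposited table lie within 1 SE of the edgeR values above.

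Markers of other cells moved with the same libraries. The 11 macrophage markers summed to 434 and 95.6 CPM in BAT, 4749 and 2107 CPM in eWAT, and 647 and 188 CPM in iWAT. All 11 were tested, with a list median between BAT and eWAT of -3.65 against -0.03 over all tested genes. Where 440 of all 11732 tested genes were lower in BAT than in eWAT by the adjusted edgeR test, 7 of the 11 were. That count was 5 without BAT replicate 1, 0 without BAT replicate 2 or either eWAT library, and 3 and 2 without iWAT replicates 1 and 2. The macrophage sum was high in eWAT, low in BAT and iWAT, and higher in replicate 1 than in replicate 2 within each depot, the order seen for Gatm and Ckb. Gamt shared the order of the replicates but not that of the depots, since its iWAT replicate 1 lay between the eWAT libraries. The 10 fibroblast and preadipocyte markers had another pattern, at 3965 and 2916 CPM in BAT, 17088 and 18594 CPM in eWAT, and 19402 and 20765 CPM in iWAT. Of these, 6 were lower in BAT than in eWAT and 1 was higher, and 5 were lower in BAT than in iWAT. Over all 11732 tested genes, 440 were lower and 318 higher in BAT than in eWAT, and 105 were lower in BAT than in iWAT. Against eWAT, the 6 lower fibroblast markers numbered 6 without BAT replicate 1, 0 without BAT replicate 2, 2 without either eWAT library, and 3 and 2 without iWAT replicates 1 and 2. Against iWAT, the 5 numbered 0 without any 1 of the BAT or iWAT libraries, and 5 and 2 without eWAT replicates 1 and 2. BAT was lowest in the fibroblast sum, as it was for Slc6a8, whereas BAT and iWAT overlapped for Gatm and Ckb. The 7 smooth muscle and pericyte markers, none of which passed, also summed higher in replicate 1 of each depot, at 1799 and 253 CPM in BAT, 1159 and 381 CPM in eWAT, and 863 and 229 CPM in iWAT. The 7 endothelial markers ran from 52.9 to 190 CPM, lowest in eWAT replicate 1, with none passing. No marker of these 4 lists was at 0 in every library. The part of macrophages, fibroblasts or vessel cells in the creatine gene values was not tested.

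**Figure D3:**
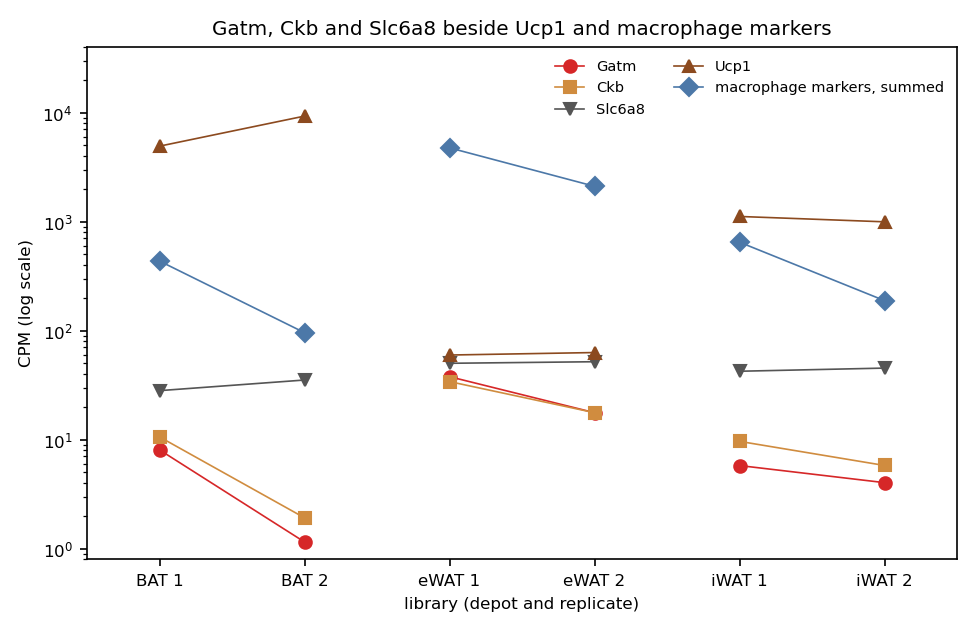
Level in each of the 6 libraries (x axis) of Gatm, Ckb, Slc6a8, Ucp1 and the sum of 11 macrophage markers (y axis, CPM on a log scale), with lines joining the 2 libraries of a depot. Gatm, Ckb and the macrophage sum are highest in eWAT and higher in replicate 1 of every depot. Slc6a8 spans a narrow range on this log scale and is lowest in BAT, while Ucp1 is highest in BAT.

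The bases before the start sites of Gatm and Ckb are shown because these genes had like levels across the depots. RefSeq start sites on GRCm38.p6 were matched for 8 of the 10 genes, with 10 windows. Each window is the 250 bases upstream of the start, written 5′ to 3′ on the gene's strand, and capitals mark the motifs found. The Gatm window is chr2:122611278-122611527 on the minus strand, and the Ckb window is chr12:111672339-111672588 on the minus strand.
Gatm: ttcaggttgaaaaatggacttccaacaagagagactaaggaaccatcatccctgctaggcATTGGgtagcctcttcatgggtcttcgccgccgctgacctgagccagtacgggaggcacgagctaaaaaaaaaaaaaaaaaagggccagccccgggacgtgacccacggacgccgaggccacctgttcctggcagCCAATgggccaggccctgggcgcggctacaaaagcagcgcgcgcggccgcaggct
Ckb: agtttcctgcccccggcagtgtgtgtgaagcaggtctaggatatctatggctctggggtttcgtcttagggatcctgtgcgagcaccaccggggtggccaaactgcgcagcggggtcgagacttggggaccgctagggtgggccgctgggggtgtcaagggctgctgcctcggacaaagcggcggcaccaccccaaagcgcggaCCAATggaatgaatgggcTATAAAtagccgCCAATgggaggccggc
Both windows hold 2 CCAAT boxes (letters CCAAT, searched on both strands), which 33.8% of 32851 windows of this length hold at least once. In Gatm they begin 190 bases (reverse strand) and 55 bases (forward strand) upstream of the start, and in Ckb 46 and 16 bases upstream. Ckb also has a TATA box (letters TATAAA) 28 bases upstream, which 12.4% of windows hold on either strand. Neither has a GC box (letters GGGCGG, in 32.7% of windows), whereas the Gamt window has 3. CCAAT and TATA boxes were added to the search after the sequences had been seen. None of the 10 windows held the direct repeat of AGGTCA spaced by 1 base that Pparg binds (0.0335% of windows), the ERR site TCAAGGTCA (0.387%), the cyclic AMP response element TGACGTCA (1.55%), the E-box CACGTG (6.02%) or the EBF palindrome (0.779%). These matches describe letters in the windows only.

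Atp2a2 encodes SERCA2, the calcium pump of the endoplasmic reticulum in most tissues (NM_009722, minus strand of chromosome 5, 122903522 to 122952234). It was by far the most abundant of the 10 genes, at 156 and 208 CPM in BAT, 227 and 203 CPM in eWAT, and 200 and 224 CPM in iWAT. BAT replicate 1 was the lowest library and the 3 depots overlapped. The log2 differences were -0.24 ± 0.20 between BAT and eWAT (edgeR adjusted p = 0.507, 95% interval -0.72 to 0.24), -0.22 ± 0.20 between BAT and iWAT (edgeR adjusted p = 0.634) and -0.02 ± 0.20 between iWAT and eWAT (edgeR adjusted p = 0.998, 95% interval -0.50 to 0.46). Per kilobase, Atp2a2 was at 42.2 ± 8.46 RPKM in BAT, 49.8 ± 3.91 in eWAT and 49.1 ± 3.99 in iWAT (SD, n = 2 each). It held 84.6% to 97.1% of the SERCA RPKM in each library. Most of the rest was Atp2a3 (SERCA3), at 4.05 and 8.32 RPKM in BAT, 2.94 and 1.18 RPKM in eWAT, and 1.47 and 1.81 RPKM in iWAT. Both BAT libraries were above the others for Atp2a3, with a log2 difference of 1.55 from eWAT that did not pass (edgeR adjusted p = 0.130).

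Atp2a1 encodes SERCA1, the pump of fast muscle fibres (NM_007504, minus strand of chromosome 7, 133589374 to 133606587). It had 12 and 4 reads in BAT, 2 and 3 reads in eWAT, and 1 and 3 reads in iWAT. Both BAT libraries were the highest, at 2.54 and 1.53 CPM against 0.241 to 0.853 CPM in the other 4. The BAT to eWAT ratio was 3.40 (exact 95% binomial interval 1.19 to 11.9) and the BAT to iWAT ratio was 4.43 (1.43 to 18.2); both intervals cover counting error only. In the authors' deposited table neither difference passed (adjusted p = 0.0950 and 0.0736). The 25 skeletal muscle markers summed to 90.4 and 67.3 CPM in BAT, 62.7 and 31.6 CPM in eWAT, and 31.8 and 47.3 CPM in iWAT. Of these, 9 were tested and 1 passed, Actn3 (alpha-actinin of fast fibres), which was lower in BAT than in eWAT. The median of the 9 was 1.87, against -0.03 over all tested genes. Mb (myoglobin) had 25 and 20 reads in BAT, 0 in both eWAT libraries, and 0 and 7 in iWAT. Myh1 (a fast myosin heavy chain) had 21 and 11 reads in BAT and at most 6 in any other library. Ttn, Mylpf and Tnnc2 of the list also had both BAT libraries above all others. Ttn was at 24.9 and 19.1 CPM in BAT, 7.92 and 3.98 CPM in eWAT, and 5.77 and 8.80 CPM in iWAT. Its log2 difference between BAT and eWAT was 1.87 (edgeR adjusted p = 0.0527). Not every marker of the list shared this order. Des was at 9.72 and 8.41 CPM in BAT, below 27.5 and 10.8 CPM in eWAT, and the Acta1 ranges of BAT and eWAT overlapped. The 7 satellite cell and myoblast markers summed to 2.96 and 3.44 CPM in BAT and 0.241 to 0.932 CPM elsewhere. The part of muscle-lineage cells in the Atp2a1 reads was not tested. The Atp2a1 model overlaps Rabep2 on the other strand by 48 bases, and Rabep2 had 22 to 56 reads a library.

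Ryr2 encodes the cardiac-type ryanodine receptor, a calcium release channel (NM_023868, minus strand of chromosome 13, 11645370 to 12199212). It had 9 and 6 reads in BAT, 4 and 1 reads in eWAT, and 7 and 3 reads in iWAT. Scaled for depth, both BAT libraries were the highest. The BAT to eWAT ratio was 3.19 (exact 95% binomial interval 1.10 to 11.2) and the BAT to iWAT ratio was 1.66 (0.698 to 4.13), for counting error only. In the authors' deposited table the BAT to eWAT difference had an adjusted p of 0.114. The 10 cardiac muscle markers, Ryr2 among them, summed to 1.42 to 7.40 CPM, and Myl7 and Myl2 had no read in any library. Per kilobase Ryr2 was the lowest or next to lowest of the 10 genes in every depot mean, at 0.125 ± 0.0165 RPKM in BAT, 0.0362 ± 0.0272 in eWAT and 0.0725 ± 0.0391 in iWAT (SD, n = 2 each).

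Release channels of the other family were far more abundant. Itpr1 and Itpr2, which encode IP3 receptors, were at 9.90 to 22.4 RPKM and 3.96 to 23.4 RPKM, against at most 0.136 RPKM for Ryr2. Itpr2 was at 138 and 276 CPM in BAT, 46.8 and 52.3 CPM in eWAT, and 68.3 and 92.3 CPM in iWAT. The BAT pair was the highest and did not overlap the others. Itpr2 was higher in BAT than in eWAT (log2 difference 2.06 ± 0.36, edgeR adjusted p = 0.0332), while its difference from iWAT did not pass (1.36 ± 0.35, edgeR adjusted p = 0.145). Itpr1 differed from eWAT by 0.68 (edgeR adjusted p = 0.129).

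**Figure D4:**
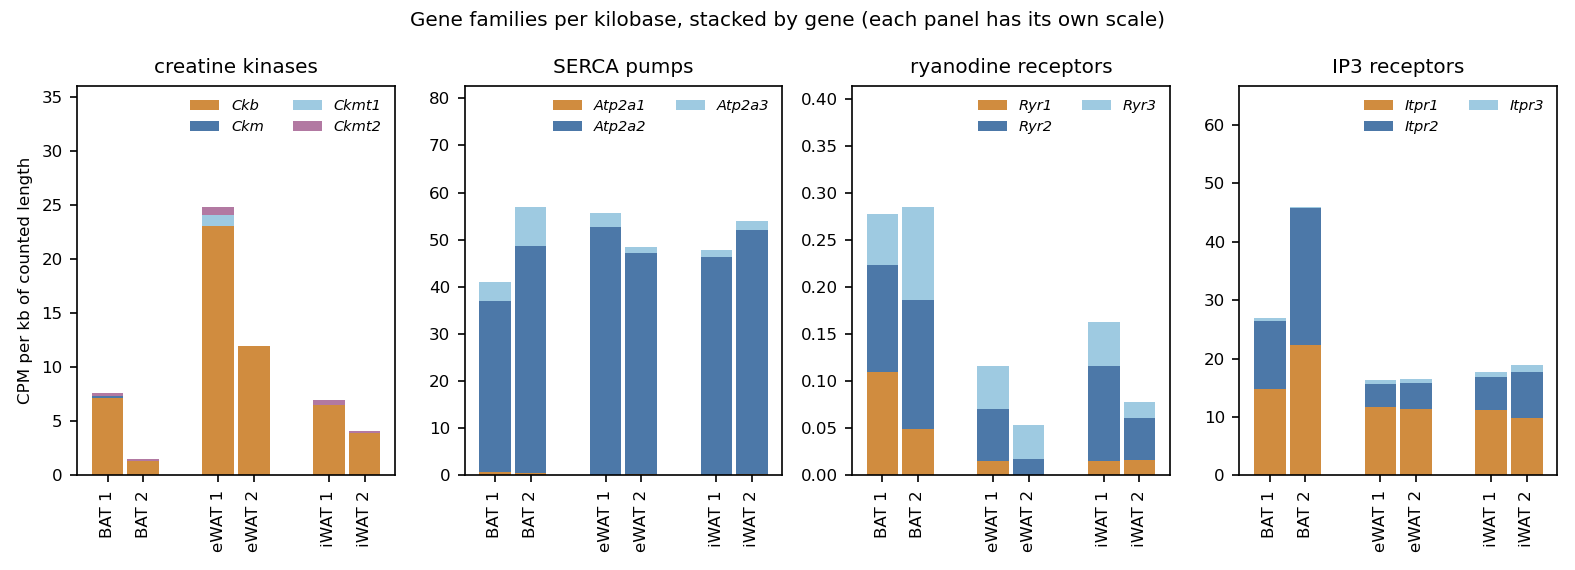
Stacked RPKM (y axis, CPM per kilobase of counted length from 0, each panel on its own scale) of the genes of 4 families in the 6 libraries (x axis): creatine kinases, SERCA pumps, ryanodine receptors and IP3 receptors. Ckb fills 83.4% to 100% of the creatine kinase bars and Atp2a2 fills 84.6% to 97.1% of the SERCA bars, while the IP3 receptor bars are tallest in BAT.

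A list of 13 other genes set beside the creatine route was wider than creatine itself. It held Ckm, Slc16a12, Phospho1, adenylate kinases, Vdac channels and Slc25a carriers. Of these, 12 were tested, and 2 were higher in BAT than in eWAT by the adjusted edgeR test, with none lower. Among all 11732 tested genes, 318 were higher in BAT. The list median was 0.63, against -0.03 over all tested genes. Phospho1, a phosphatase of phosphocholine and phosphoethanolamine that acts beside Alpl in bone, was at 20.5 and 29.1 CPM in BAT, 5.36 and 7.39 CPM in eWAT, and 16.4 and 19.1 CPM in iWAT. The depots did not overlap for Phospho1, and BAT was above eWAT by a log2 difference of 1.95 ± 0.32 (edgeR adjusted p = 0.0309). Ak4, a mitochondrial adenylate kinase, was higher in BAT by 2.45 ± 0.40 (edgeR adjusted p = 0.0313). The ADP/ATP carriers Slc25a4 and Slc25a5 differed by 0.81 (edgeR adjusted p = 0.0645) and 0.71 (edgeR adjusted p = 0.0743) and did not pass. No gene of this list passed the adjusted edgeR test in the comparisons of BAT with iWAT (median 0.39) or of iWAT with eWAT (median 0.20). Slc16a12, a creatine transporter of the monocarboxylate transporter family, had the smallest adjusted p of the list in both. It was at 6.34 and 3.82 CPM in BAT, 1.63 and 1.71 CPM in eWAT, and 29.1 and 15.1 CPM in iWAT. The depots did not overlap, and iWAT was the highest. BAT was below iWAT by a log2 difference of -2.08 ± 0.44 (edgeR adjusted p = 0.112, DESeq2 adjusted p = 0.0207). The iWAT libraries were above eWAT by 3.70 ± 0.50 (edgeR adjusted p = 0.0906, DESeq2 adjusted p = 2.17e-05).

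Enzymes that supply arginine, glycine and methyl groups to creatine synthesis had no call in any comparison, with 13 of 16 tested and a median of 0.04 between BAT and eWAT. Among them Arg1 (arginase, which consumes arginine) was at a mean of 2.20 CPM in BAT and 48.6 CPM in eWAT (log2 difference -4.24 ± 1.07, edgeR adjusted p = 0.0689), and Shmt2, the mitochondrial glycine-forming enzyme, differed by 0.90 ± 0.23 (edgeR adjusted p = 0.0689). Of 28 other genes of calcium stores in the table, 17 were tested and Itpr2 alone passed between BAT and eWAT (median -0.15). Of all tested genes 6.46% passed there. The SERCA inhibitor gene Sln (sarcolipin) had no read in any library, which allows up to 0.634 to 1.15 CPM. Pln (phospholamban), another SERCA inhibitor, had 1 and 0 reads in BAT, 3 and 9 reads in eWAT, and 4 and 3 reads in iWAT. Casq2, the cardiac-type calsequestrin that stores calcium, had 17 and 3 reads in BAT and at most 2 in any other library.

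Of 14 mitochondrial and plasma membrane calcium transporters, 12 were tested, and 2 were lower in BAT than in eWAT (list median 0.26). Of all 11732 tested genes, 440 were lower and 318 higher in BAT than in eWAT. Slc8a1, a sodium-calcium exchanger of the plasma membrane, was at 16.7 and 8.03 CPM in BAT, 83.6 and 64.0 CPM in eWAT, and 23.1 and 12.8 CPM in iWAT. BAT was below eWAT by -2.53 ± 0.42 for Slc8a1 (edgeR adjusted p = 0.0313) and by -1.80 ± 0.38 for the calcium pump Atp2b4 (edgeR adjusted p = 0.0472). Of 16 other genes proposed for Ucp1-independent heat, 14 were tested and 2 were higher in BAT than in eWAT (list median 0.72). These were Pck1 (2.07 ± 0.29, edgeR adjusted p = 0.0231) and Gyk (1.29 ± 0.23, edgeR adjusted p = 0.0348), which encode phosphoenolpyruvate carboxykinase and glycerol kinase and supply glycerol 3-phosphate for re-esterifying fatty acids. The calls of Phospho1, Ak4, Itpr2, Slc8a1, Atp2b4, Pck1 and Gyk kept their direction when any 1 library was left out, but passed again in at most 3 of those 6 fits (Pck1), and Atp2b4 in none. Neither list had a call between BAT and iWAT or between iWAT and eWAT.

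Likeness to each tested gene was measured as Pearson's r of log2 CPM over the 6 libraries, among 10363 candidate genes, and the 3 closest genes were named for each. The 6 points share 3 depots and each library's depth, and no p is given. For Gatm these were Inpp5d (r = 0.998), Snx5 (0.994) and Tbxas1 (0.994). For Ckb they were Clec4a2 (0.997), Apbb1 (0.993) and Snx30 (0.993), and for Gamt Tmed3 (0.996), F13a1 (0.990) and Cnp (0.989). The genes nearest to Slc6a8 were Dctn1 (0.998), Zkscan17 (0.993) and Pelp1 (0.991). Mast2 (0.995) led for Alpl and Lmbr1 (0.985) for Atp2a2. Inpp5d was at 8.24 and 1.91 CPM in BAT, 32.6 and 17.6 CPM in eWAT, and 6.25 and 5.28 CPM in iWAT. It was picked for its high r with Gatm, so a like profile over the libraries follows from the choice. Per kilobase Inpp5d was below Gatm, at 6.61 and 3.57 RPKM in eWAT against 16.0 and 7.48 RPKM for Gatm.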

How the data were processed

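RNA-seq libraries of 3 depots (2 each) were analysed. Per the submitters' processing notes, reads were aligned with STAR to mm9. Of tool versions, the counting program, strandedness and multi-mapping reads, none is given in the sources used here. One deposited table holds whole-number read counts per gene, without normalization per the file headers, with mm9 coordinates and gene lengths. A second deposited table holds the authors' log2 values, log2 fold changes, p-values and adjusted p-values, and a likelihood ratio score; the authors' tool is not given there. That table was used for comparison only.

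All 6 libraries were fitted together with edgeR 4.0.16 in R 4.3.3 (filterByExpr by depot, TMM scaling, quasi-likelihood F test, two-sided, Benjamini-Hochberg over all tested genes, called below 0.05). This kept 11732 of 20295 genes, which hold 99.7% to 99.8% of the counts. The common biological coefficient of variation came to 0.251 (3 residual degrees of freedom, 3.34 prior). Limits for a count of 0 (3 counts) and 95% intervals on counts cover counting error only, since reads carry no molecular identifiers. Alternatives were DESeq2 1.42.0, limma voom 3.58.1, other scalings, no filter, only the depots compared, a replicate block and leaving out each library.

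The 10 genes and all lists were chosen with earlier results of these data known. From each pathway list up to 4 genes with the smallest adjusted p were named, plus Ucp1, Ckm, Sln, Pln and Phospho1 whatever their result. Likeness used log2 CPM with a prior count of 2, among tested genes with a mean of at least 5 CPM. Other family genes, marker genes named for their zero counts, and single muscle genes, were chosen after their values were seen. Promoter windows are from RefSeq (GRCm38.p6), whose build differs from mm9, and are used only as sequence; Slc6a8 and Atp2a2 were not matched.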

Additional observations from a re-analysis of the deposited data

How the results depend on the processing

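The 6 tested genes in 3 comparisons gave 252 values under 14 alternatives, of which 225 kept their direction and side of the threshold, 14 newly passed and 13 turned direction. Between BAT and eWAT, where none of the 6 passed, 3 passed with no filter on low counts (Gatm, Ckb, Alpl), 1 with library totals only (Slc6a8), 1 with DESeq2 (Gatm), and 0 to 1 when 1 library was left out (1 without BAT replicate 1). Between iWAT and eWAT 2 passed with no filter (Gatm, Ckb), and between BAT and iWAT none did under any alternative. All genes called between BAT and eWAT (758) numbered 1937 with no filter, 1370 with DESeq2, 154 with only the 2 depots fitted, and 2 (without BAT replicate 2) to 820 (without BAT replicate 1) when 1 library was left out. Between BAT and iWAT (122) they numbered 780, 510 with DESeq2, 69 with limma voom, and 0 to 94. Between iWAT and eWAT (0) they numbered 557, 301, 1 with limma voom, 2 with only the 2 depots, and 0 to 3. With the replicate block, 4 genes passed between BAT and eWAT (Gatm, Gamt, Ckb, Slc6a8), 2 between iWAT and eWAT (Gatm, Ckb), and 2780, 1225 and 563 of all genes in the 3 comparisons. Differences between same-numbered libraries correlated at 0.41 to 0.56 across depots. The labels do not say what a shared number means, and with 2 numbers per depot the design does not settle whether the fit with or without the block applies. Directions turned for Gatm between BAT and iWAT (-0.028 with totals only, -0.035 with DESeq2, -0.26 with limma voom, -0.10 with the replicate block, -2.06 to 0.72 when 1 library was left out). When 1 library was left out, ranges that crossed 0 were -2.79 to 0.011 for Alpl between BAT and eWAT, -1.72 to 1.07 for Alpl, -0.93 to 0.011 for Gamt and -0.11 to 0.063 for Atp2a2 between iWAT and eWAT, and -1.99 to 0.46 for Ckb between BAT and iWAT. The 7 other genes called between BAT and eWAT (Phospho1, Ak4, Itpr2, Slc8a1, Atp2b4, Pck1, Gyk) kept their direction under all 14 and passed under 5 (Atp2b4) to 11 (Pck1). Slc16a12 kept its direction in all 3 comparisons and passed in each with no filter and with the replicate block. The cause was not tested beyond what each alternative changes. At these depths Ckmt1, Ckmt2, Atp2a1 and Ryr2 had too few reads for the test.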
